A study of Mus musculus with 9 samples.

Results

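Adrb1 and Adrb3, which encode the β1- and β3-adrenergic receptors, were read in LSK cells, bone marrow cells of the mouse that lack lineage markers and carry Sca1 and cKit, among them blood stem cells and multipotent progenitors. They are 2 of the 14940 genes in the deposited table and were chosen by symbol. SR59230A, the drug of the study, is an antagonist of the β3 receptor. The 9 libraries came from C57BL/6 mice, 3 in each group. One group was immunized for experimental autoimmune encephalomyelitis (EAE) with complete Freund's adjuvant and the MOG35-55 peptide and treated with SR59230A for 3 days. The second was immunized in the same way and taken at day 3, and the third was naive. All mice are of one strain, and the labels give neither age nor sex. No group received adjuvant alone, and the labels name no vehicle for the untreated EAE mice, so effects of adjuvant and peptide, or of the antagonist and its administration, cannot be told apart.

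β-adrenergic receptors are G protein-coupled receptors for noradrenaline and adrenaline. Bound receptor activates the stimulatory G protein, adenylyl cyclase makes cAMP, and cAMP activates protein kinase A. Receptor kinases and β-arrestins then uncouple the receptor, and phosphodiesterases break cAMP down. The β1 receptor is best known for raising heart rate and contractility, and the β3 receptor for lipolysis and heat production in fat. In bone marrow, sympathetic nerve fibres release noradrenaline, and β3 receptors are known from the stromal cells of the niche, which the LSK gate is meant to leave out.

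For Adrb1, the bases just before the RefSeq transcript start (GRCm38.p6, chr19:56721867-56722116, plus strand) are shown because this stretch was searched for the cAMP response element. Capitals mark its half-site.
Adrb1: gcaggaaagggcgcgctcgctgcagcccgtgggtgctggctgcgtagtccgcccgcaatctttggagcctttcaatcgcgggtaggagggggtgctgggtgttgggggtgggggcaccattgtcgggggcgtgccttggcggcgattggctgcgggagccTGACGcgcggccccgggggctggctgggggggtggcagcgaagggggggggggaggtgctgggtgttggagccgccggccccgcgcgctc
The half-site, TGACG on either strand, occurred 1 time in these 250 bases, 90 bases before the start. It was present in 17.8% of 32851 promoter windows of this length. The full element TGACGTCA, which contains the half-site, did not occur in the window and was present in 1.55% of all windows. A match of letters is a description of the sequence and not a binding site.

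Adrb1 was low in these cells, and Adrb3 was among the lowest genes of the table. The deposited whole numbers are values adjusted by the authors and not read counts, so depth and counting error are unknown. Adrb1 ranged between 3 and 21 over the 9 libraries and Adrb3 between 0 and 8, whereas the median gene had between 164 and 205 in a library. Averaged over all libraries, 19.2% of all genes were lower than Adrb1 and 3.45% were lower than Adrb3. Adrb1 reached 10 in 6 libraries and passed the filter on low values, at least 10 in 3 libraries. Adrb3 reached 10 in none, did not pass, and was kept in the fit as a member whatever its level.

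Genes of the olfactory, vomeronasal and taste receptor families, which have no known role in blood progenitors, served to show what values such a gene takes in these libraries. The table holds 1140 of them. Of these chemosensory genes 66.8% were lower than Adrb1 and 4.56% were lower than Adrb3. The 3 α2-adrenergic receptor genes of the table, which encode receptors that inhibit adenylyl cyclase, lay in the same range: Adra2c averaged 12.9, Adra2b 11.2 and Adra2a 5.22 over the 9 libraries. By level alone, none of these 5 receptor genes stood apart from the chemosensory genes. Adra2c had 9, 9 and 9 in SR59230A-treated, 13, 16 and 15 in EAE and 15, 17 and 13 in naive libraries. Its treated libraries were thus below all others, though no difference passed. Over all tested genes, 7.71% were lower in treated than in EAE mice without overlap, and 22.4% lower than in naive mice. The treated libraries of Adra2b and Adra2a overlapped both other groups.

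**Figure D1:**
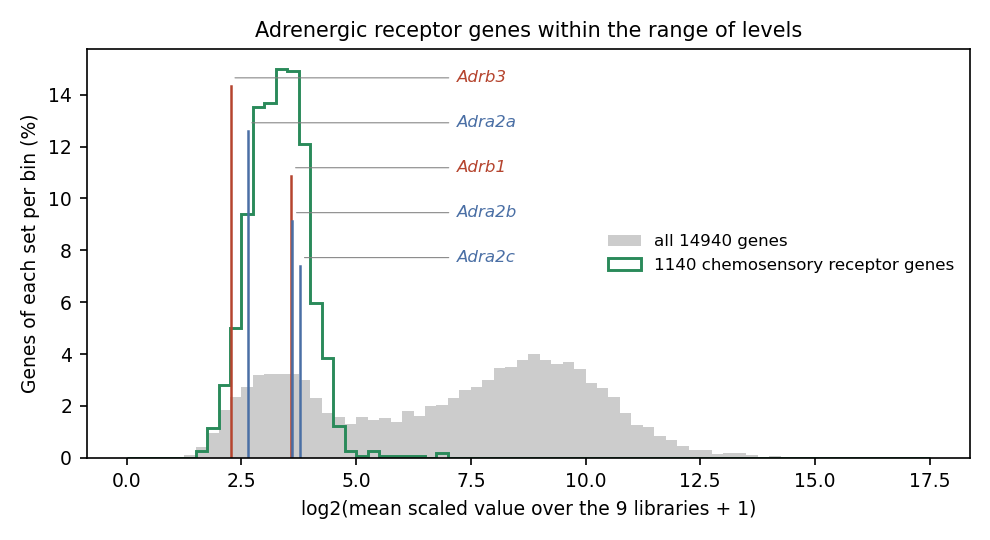
Distribution of mean levels over the 9 libraries, as log2(scaled value + 1), for all 14940 genes (grey) and 1140 chemosensory receptor genes (green outline), each as a percentage of its own set per bin. Vertical lines mark Adrb1 and Adrb3 (red) and the α2-adrenergic receptor genes (blue). These 5 lie within the hump of chemosensory genes, with Adrb3 near its lower edge.

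Adrb1 had 3, 5 and 7 in SR59230A-treated EAE mice, 12, 13 and 10 in EAE mice and 19, 11 and 21 in naive mice. The treated libraries were below every EAE and every naive library, and the EAE and naive libraries overlapped through the 11 of naive replicate 2. The means were 5.0 ± 2.0, 11.7 ± 1.53 and 17.0 ± 5.29 (SD, n = 3 each), so that treated mice were lowest and naive mice highest. In bulk RNA, fewer cells that express a gene and less RNA per cell cannot be told apart.

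No difference of Adrb1 met the threshold of 0.05 in limma-trend with Benjamini-Hochberg adjustment over 13019 genes. Between treated and EAE mice its log2 fold change was -1.05 ± 0.48 (SE), with an unadjusted 95% interval of -2.11 to 0.01 and adjusted p = 0.998. Over all tested genes, 7.71% were lower in treated mice without overlap, and 0.00768% were called. Between treated and naive mice it was -1.49 ± 0.48 (-2.55 to -0.44), with adjusted p = 0.0588, where 22.4% of genes were lower without overlap and 14.8% were called. This value lay close to the threshold: adjusted p ran from 0.0126 to 0.814 over the alternatives by limma-trend, and it passed without EAE replicate 1, 2 or 3, without naive replicate 2 and without SR59230A-treated replicate 3. Between EAE and naive mice it was -0.44 ± 0.48 (-1.50 to 0.62), with adjusted p = 0.583, where 14.2% of genes were called.

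**Figure D2:**
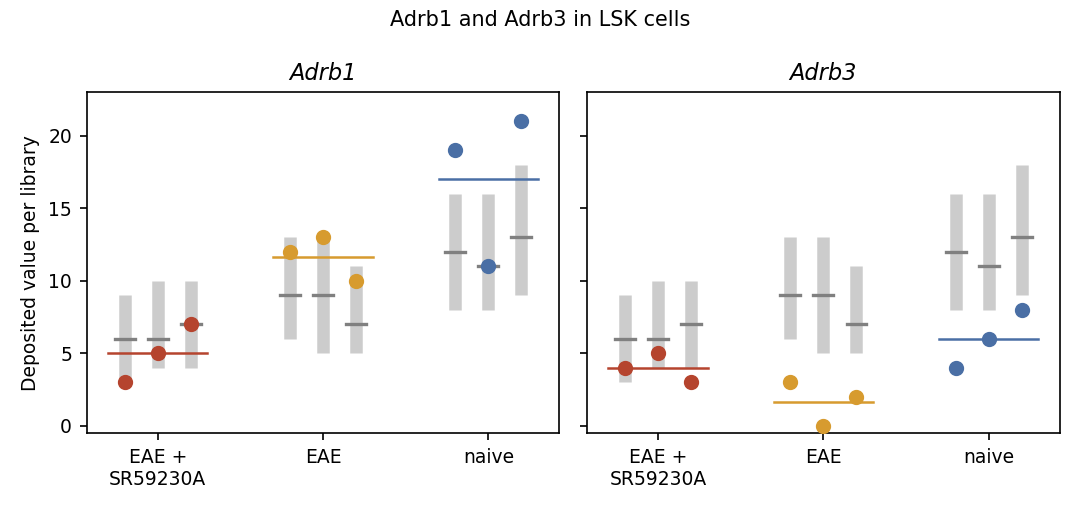
Deposited value of Adrb1 (left) and Adrb3 (right) in each library of SR59230A-treated EAE, EAE and naive mice, replicates 1 to 3 from left to right. Points are libraries, coloured lines group means, grey bars the interquartile range and grey ticks the median of the 1140 chemosensory receptor genes in the same library. Adrb1 is lowest in the treated libraries, at 3 to 7. Adrb3 has its lowest mean in the EAE libraries, at 0 to 3, which meet the treated ones at 3. The chemosensory medians are highest in the naive libraries. The mean of Adrb1 is highest there too, but its naive libraries overlap the EAE ones.

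Adrb3, the labelled target of SR59230A, had 4, 5 and 3 in treated mice, 3, 0 and 2 in EAE mice and 4, 6 and 8 in naive mice. EAE replicate 2 was listed at 0. On the deposited scale the treated and EAE libraries met at 3, and the treated and naive libraries overlapped between 4 and 5. After scaling of the libraries the treated values were above every EAE value (3.31 against 2.69 for the nearest pair), a separation that rests on the scaling. The EAE values were below every naive value on both scales.

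For Adrb3 no difference passed the same test (limma-trend, Benjamini-Hochberg). Between treated and EAE mice the log2 fold change was 1.18 ± 0.73 (-0.41 to 2.76), with adjusted p = 0.998, and 8.46% of tested genes were higher without overlap. Without EAE replicate 2 it was 0.59, and it was 2.29 with a pseudocount of 0.1 and 0.29 with one of 10. Between EAE and naive mice it was -1.55 ± 0.73 (-3.13 to 0.04), with adjusted p = 0.185, where 18.4% of genes were lower without overlap. Without EAE replicate 2 this was -0.96, and with the pseudocounts of 0.1 and 10 it was -2.75 and -0.44. Between treated and naive mice it was -0.37 ± 0.72 (-1.95 to 1.22), with adjusted p = 0.768. These intervals span more than a doubling in at least one direction, so a difference of that size could not be told from none. The antisense gene Gm45470 overlaps Adrb3 in GENCODE M21, and whether the reads were assigned by strand is not given in the sources used here.

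**Figure D3:**
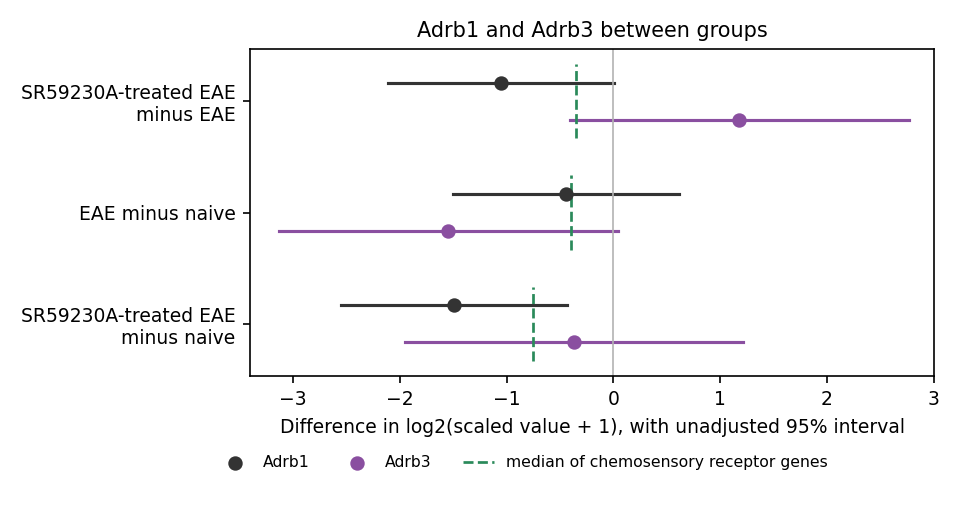
Differences of Adrb1 (black) and Adrb3 (purple) between groups on the log2(scaled value + 1) scale, with unadjusted 95% intervals from limma-trend over 9 libraries. Dashed green lines give the median difference of the 722 tested chemosensory receptor genes. A gene can enter this set through the naive libraries alone. Of the 6 intervals only that of Adrb1 between treated and naive mice, at -2.55 to -0.44, lies wholly on one side of 0.

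The level of one receptor gene relative to the other was set per length, with exon lengths of 3382 bases for Adrb1 and 3376 for Adrb3 in GENCODE M21. Whether the values scale with transcript length is not given in the sources used here, and the lengths are nearly equal. As scaled value per kilobase of exon, Adrb1 averaged 1.56 and Adrb3 1.23 in treated mice, 3.38 and 0.470 in EAE mice, and 4.84 and 1.69 in naive mice. Adrb1 was higher than Adrb3 in every EAE and naive library. In treated mice it was lower than Adrb3 in replicate 1, at 3 against 4, equal to it in replicate 2, at 5, and higher in replicate 3, at 7 against 3.

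The log2 ratio of Adrb1 to Adrb3 within a library, with 1 added to both scaled values, was -0.32, 0 and 1.02 in treated mice, 1.67, 3.83 and 1.89 in EAE mice and 2.0, 0.77 and 1.28 in naive mice. Treated libraries were below every EAE library (mean log2 difference -2.23) and overlapped the naive ones (-1.12). The share of other gene pairs whose ratio separates in this way was not computed. EAE and naive libraries differed by 1.11 and overlapped. The 3.83 of EAE replicate 2 rests on a gene listed at 0, so it and the differences from the EAE group follow from the value added: treated against EAE mice gave -3.50 with 0.1 added and -0.79 with 10, and EAE against naive mice 2.27 and 0.16. With 3 libraries against 3 a 2-sided exact permutation test cannot go below p = 0.1, so none of these comparisons could reach 0.05. The exact test gave p = 0.1 for treated against EAE, p = 0.3 for EAE against naive and p = 0.2 for treated against naive mice.

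The chemosensory genes differed between the groups in the same order as the means of Adrb1. Their median value was 6, 6 and 7 in treated mice, 9, 9 and 7 in EAE mice and 12, 11 and 13 in naive mice. The median log2 fold change of the 722 that were tested was -0.35 between treated and EAE, -0.39 between EAE and naive and -0.75 between treated and naive mice, against 0.01, -0.00325 and 0.01 over all tested genes. The wider set of 2211 tested genes with a mean under 20 gave -0.16, -0.35 and -0.54. Adrb1 and Adrb3 belong to this range of levels.

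Set against the mean of the chemosensory genes in the same library, Adrb1 stood at 0.438, 0.668 and 0.884 times that mean in treated mice, 1.12, 1.27 and 1.14 times in EAE mice and 1.46, 0.855 and 1.42 times in naive mice. The treated libraries were below every EAE library on this measure too (difference -0.76 in log2 with 1 added to both values, 2-sided exact permutation test p = 0.1, the smallest that 3 against 3 allows) and overlapped the naive ones (-0.80, exact permutation p = 0.2). EAE and naive mice differed by -0.05 (exact permutation p = 1). Adrb3 stood at 0.584, 0.668 and 0.379 times the mean in treated mice, 0.280, 0 and 0.228 times in EAE mice and 0.307, 0.466 and 0.539 times in naive mice. On this measure the EAE libraries were below every treated and every naive library. With 1 added, treated and EAE mice differed by 1.48 and EAE and naive mice by -1.16 in log2 (exact permutation p = 0.1 each), sizes that depend on the value added since 1 EAE library is listed at 0. The share of all tested genes that separate between the groups on these measures was not computed, and the shares without overlap given above do not apply to them. The chemosensory mean was itself lowest in treated and highest in naive libraries, so a gene without change moves up in treated mice on these measures. They were chosen after the values had been seen.

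Genes listed as markers of cells outside the gate differed between the groups in both directions. Bulk RNA does not tell whether their values came from such cells or from LSK cells, and this was not tested. Of 15 marrow stromal markers, 6 were in the table. Cxcl12, the chemokine of niche stromal cells, ranged from 0 to 4 in treated, from 0 to 4 in EAE and from 1 to 9 in naive libraries. Pdgfrb, which encodes a platelet-derived growth factor receptor, made up most of the stromal sum. It had 1464, 1516 and 1396 in treated, 1745, 1588 and 1466 in EAE and 1118, 1396 and 1236 in naive libraries. It rose against naive mice in treated (0.35 ± 0.09, limma-trend adjusted p = 0.0279) and in EAE mice (0.39 ± 0.09, adjusted p = 0.0163). All 6 summed to between 1441 and 1565 in treated, 1525 and 1793 in EAE and 1197 and 1505 in naive libraries. The other 5 stromal markers, a sum formed after their values were seen, came to between 45 and 59 in treated, 48 and 59 in EAE and 67 and 109 in naive libraries. All 8 endothelial markers were in the table, and summed to between 5068 and 5595 in treated, 4342 and 5984 in EAE and 5092 and 6406 in naive libraries. Pecam1 and Eng, the highest of them, averaged 2873 and 1925 as scaled value. By limma-trend, 3 of the 8 (37.5%) fell and none rose between treated and naive mice (Sele, Emcn and Eng), beside 4.61% lower over all tested genes. Between EAE and naive mice 4 (50%) fell and none rose (these and Cdh5), beside 5.1% lower over all tested genes. Sele, which encodes E-selectin, had 0, 3 and 2 in treated, 4, 1 and 0 in EAE and 24, 12 and 66 in naive libraries. It passed the filter on low values only through the naive libraries where it was high. Its fall, counted in both shares, therefore lends them no weight. Pecam1, which encodes the adhesion molecule CD31, was the only one with a positive log2 fold change in both comparisons, 0.45 ± 0.14 for treated and 0.30 ± 0.14 for EAE mice, and passed in neither. Cdh5, which encodes VE-cadherin, had 5, 18 and 10 in treated, 19, 3 and 2 in EAE and 35, 20 and 131 in naive libraries. Naive replicate 3 was highest for Cdh5, Adrb1 and Adrb3 alike.

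Of 9 adipocyte markers 3 were in the table (sum 697 to 736 in treated, 596 to 647 in EAE and 713 to 802 in naive libraries), nearly all from Lipe, which encodes hormone-sensitive lipase. Fabp4, a fatty acid-binding protein gene, was at 1, 10 and 6 in treated, 14, 0 and 3 in EAE and 20, 20 and 101 in naive libraries. Of 8 nerve and Schwann cell markers 2 were in the table, with sums of 42 to 68, 44 to 51 and 73 to 79 in the same groups. Of 10 lineage markers 8 were in the table, with sums of 3721 to 4301, 3249 to 4767 and 3225 to 4194 and Cd8a at 0 in some libraries. Ptprc, the gene of the leukocyte antigen CD45, was the highest of them, at 2412 on average as scaled value, and did not pass in any comparison. By limma-trend 2 of the 7 tested lineage markers (28.6%) rose and none fell in both comparisons with naive mice. Over all tested genes 10.2% rose in treated and 9.13% in EAE mice. Itgam, which encodes the myeloid integrin CD11b, had 1051, 1295 and 1419 in treated, 1454, 1199 and 1349 in EAE and 650, 591 and 840 in naive libraries (0.98 ± 0.15 and 0.99 ± 0.15 against naive mice, adjusted p = 0.00206 and 0.00189). Klrb1c, the gene of the natural killer cell marker NK1.1, had 98, 104 and 96 in treated, 105, 95 and 75 in EAE and 29, 31 and 41 in naive libraries (1.67 ± 0.21 and 1.46 ± 0.21, adjusted p = 5e-04 and 0.00117). Of the genes of the gate, Kit fell against naive mice in treated (-0.45 ± 0.09, limma-trend adjusted p = 0.00961) and in EAE mice (-0.43 ± 0.09, adjusted p = 0.0115), with 4540 to 5071, 5072 to 5367 and 6971 to 7223 in treated, EAE and naive libraries. Ly6a, the gene of Sca1, rose against naive mice in treated (0.68 ± 0.12, adjusted p = 0.00335) and in EAE mice (0.46 ± 0.12, adjusted p = 0.0226), with 2106 to 2496, 1838 to 2283 and 1420 to 1837 in the same groups. The part of these other cells in the receptor values was not tested.

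Among all tested genes, those most like Adrb1 over the 9 libraries by Pearson correlation of log2 values were Tdpoz2 (r = 0.986), Hist3h2bb-ps (0.981), Ifit2 (0.980), Pcnx (0.979) and Gm11567 (0.977). Gm11567 had 3, 5 and 7 in treated, 13, 10 and 10 in EAE and 14, 11 and 18 in naive libraries. Ifit2, an interferon-induced gene at a far higher level, had 154, 170 and 169 in treated, 219, 192 and 191 in EAE and 207, 204 and 230 in naive libraries. For Adrb3 they were Tep1 (0.995), St3gal6 (0.988), AI987944 (0.970), Enpp6 (0.970) and Ppcdc (0.962). St3gal6, a sialyltransferase gene, had 135, 154 and 114 in treated, 138, 65 and 114 in EAE and 133, 157 and 175 in naive libraries, with its lowest value in EAE replicate 2, where Adrb3 was listed at 0. The 2 sets of 5 genes share none. They were picked as the highest of 13018 correlations over the same 9 libraries, and serve as a description. Libraries may differ in depth, which is unknown, or in processing. Such a difference can reach many genes at once and need not be equal at all levels. Its part in these correlations was not tested.

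Unlike Adrb1 and Adrb3, many genes that act after the receptor were well above the low range. Of 79 genes of the adrenergic lists 64 were in the table and 57 were tested. Gnai2, an inhibitory G protein gene, averaged 13487 as scaled value, Pde4b, a cAMP phosphodiesterase gene, 6190, Adrbk1, the β-adrenergic receptor kinase now named Grk2, 4640, the adenylyl cyclase gene Adcy7 3779, Prkar1a, a regulatory subunit gene of protein kinase A, 3467, and Grk6, another receptor kinase gene, 2560. Between treated and EAE mice 0 of the 57 passed (limma-trend with Benjamini-Hochberg adjustment, against 0.00768% of all tested genes), and 4 (7.02%) had an unadjusted p under 0.05, against 3.87% of all tested genes. These were Maoa, Slc22a3, Pde3b and Slc9a3r1. Their median log2 fold change was 0.06, against 0.01 over all tested genes. Between EAE and naive mice 1 rose and 5 fell, with a median of 0.00045. That is 1.75% higher, 8.77% lower and 10.5% called in all, against 9.13%, 5.1% and 14.2% of all tested genes. Between treated and naive mice 2 rose and 5 fell, with a median of -0.05. That is 3.51% higher, 8.77% lower and 12.3% called in all, against 10.2%, 4.61% and 14.8% of all tested genes. Whether the lists differ from all genes in these shares was not tested.

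Of 20 tested genes of cAMP production and protein kinase A, 3 (15%) fell and none rose between EAE and naive mice, where 14.2% of all tested genes were called and 5.1% fell. The adenylyl cyclase genes Adcy9 and Adcy6 fell. Adcy9 had 232, 241 and 202 in EAE and 372, 360 and 364 in naive libraries (log2 fold change -0.67 ± 0.12, limma-trend adjusted p = 0.00462). Adcy6 had 280, 218 and 178 in EAE and 309, 341 and 382 in naive libraries (-0.60 ± 0.15, adjusted p = 0.0195 by the same test). Prkacb, which encodes a catalytic subunit of protein kinase A, fell by 0.33 ± 0.09 on the log2 scale, a call lost without naive replicate 1 (adjusted p = 0.0789, limma-trend). Treated mice had 247, 254 and 241 for Adcy9, with a log2 fold change of -0.45 ± 0.12 against naive mice (adjusted p = 0.0316, limma-trend) and of 0.23 ± 0.12 against EAE mice, which did not pass. Between treated and naive mice, Adcy6 and Adcy3 also fell, by 0.52 ± 0.15 and 0.47 ± 0.14. Not all tested adenylyl cyclase genes went this way. Adcy7, the most abundant, was at 0.19 ± 0.10 in EAE and 0.22 ± 0.10 in treated mice against naive mice. Adcy4, a low gene, was at -0.25 ± 0.77 and -0.58 ± 0.77, and neither gene passed. Between treated and naive mice Prkar2a, a regulatory subunit gene of protein kinase A, rose by 0.47 ± 0.13 and Atf1, a cAMP-regulated transcription factor gene, by 0.28 ± 0.08.

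Of 18 tested genes of desensitization and cAMP breakdown, 2 (11.1%) fell between EAE and naive mice and none rose, beside the 14.2% called and 5.1% lower over all tested genes. Arrb1, which encodes β-arrestin 1, had 868, 826 and 687 in EAE and 1150, 1064 and 1263 in naive libraries (-0.52 ± 0.12, limma-trend adjusted p = 0.0126). Slc9a3r1, a scaffold gene whose protein binds the tails of membrane receptors, had 463, 397 and 339 in EAE and 532, 612 and 589 in naive libraries (-0.51 ± 0.11, adjusted p = 0.0101 by the same test). Treated mice had 498, 516 and 421, and their difference from EAE mice, 0.35 ± 0.11, did not pass. Arrb1 had 708, 823 and 805 in treated libraries and fell by 0.46 ± 0.12 against naive mice. The kinase gene Adrbk1 did not pass in any comparison, at 4695, 4786 and 4291 in treated, 4735, 3959 and 4224 in EAE and 4912, 5222 and 5282 in naive libraries.

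Among 5 tested genes of catecholamine synthesis, transport and breakdown, 1 (20%) rose and none fell between EAE and naive mice, beside 9.13% higher over all tested genes. This was Maoa, which encodes monoamine oxidase A. It had 338, 319 and 332 in EAE and 211, 226 and 220 in naive libraries (0.62 ± 0.12, limma-trend adjusted p = 0.00606). Treated libraries lay between them, at 270, 238 and 229, and neither comparison of treated mice passed. Slc22a3, a low-affinity monoamine transporter gene, had 1244, 1256 and 1280 in treated, 1581, 1623 and 1539 in EAE and 1584, 1697 and 1552 in naive libraries and did not pass. Slc18a2, which encodes a transporter that loads monoamines into vesicles, averaged 510.2 as scaled value and did not pass either. Th, the tyrosine hydroxylase gene of catecholamine synthesis, ranged between 0 and 9 and was not tested.

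Of 12 early genes that respond to cAMP, none passed by limma-trend between treated and EAE mice (0 at an unadjusted p under 0.05) or between EAE and naive mice (1 at an unadjusted p under 0.05). Against naive mice 10 of the 12 had a positive log2 fold change in treated mice (median 0.42, against 0.01 over all tested genes). In EAE mice 10 did too (median 0.35, against -0.00325). Several of these genes moved together within the naive group. Fos had 10562, 19262 and 7566 and Sik1 10839, 18378 and 6304 in naive replicates 1 to 3. The signs of the 12 are thus not separate results, and the share of positive signs over all tested genes was not computed. The only call was between treated and naive mice, where 1 (8.33%) fell and none rose, beside 14.8% called and 4.61% lower over all tested genes. This was Ppargc1a, a coactivator gene that β3 signalling raises in brown fat, at 36, 44 and 56 in treated and 95, 79 and 88 in naive libraries (-0.84 ± 0.25, limma-trend adjusted p = 0.0442). The call was lost in 4 of the 9 fits that left out 1 library, those without naive replicate 1 or 3 or SR59230A-treated replicate 1 or 2, with adjusted p up to 0.107, and without a trend in the prior. EAE libraries had 55, 60 and 63. The most abundant early genes varied widely within the groups. Egr1 had 22838, 14868 and 14675 in treated, 12460, 18005 and 19844 in EAE and 18740, 23905 and 11975 in naive libraries. Fos and Sik1 overlapped between all 3 groups in the same way, and Fos ranged between 7566 and 25890.

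**Figure D4:**
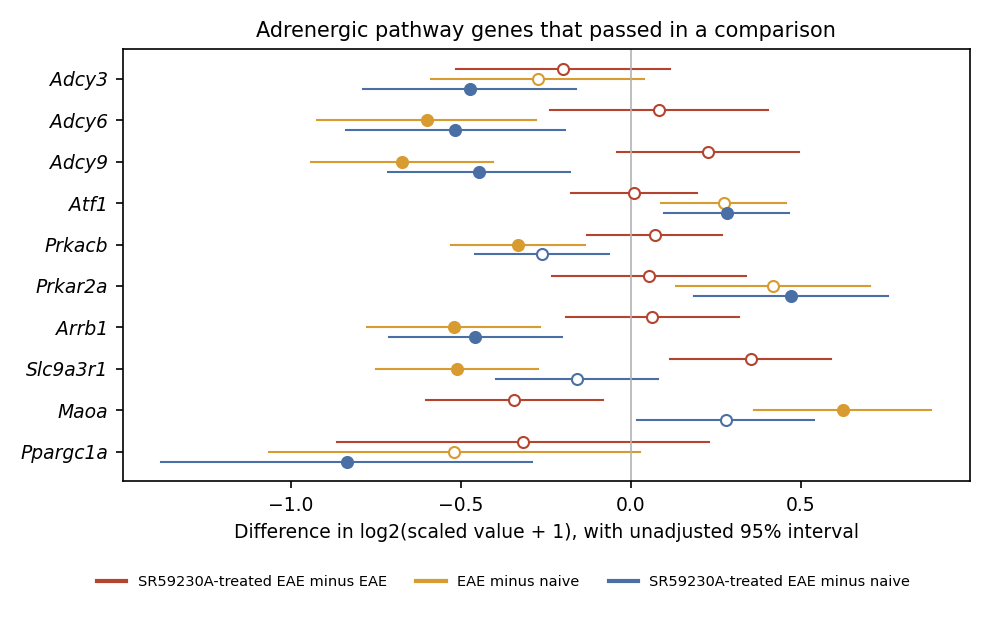
The 10 adrenergic pathway genes that passed in at least 1 comparison, as differences in log2(scaled value + 1) with unadjusted 95% intervals, for SR59230A-treated EAE minus EAE (red), EAE minus naive (yellow) and treated minus naive (blue). Filled points passed an adjusted p of 0.05 by limma-trend. No red point is filled, and the 3 adenylyl cyclase genes shown lie below 0 in both comparisons with naive mice. Of the tested cyclase genes that did not pass and are not shown, Adcy7 lay above 0 in both and Adcy4 below.

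The calls between EAE and naive mice held more often than those of treated against naive mice when 1 library was left out. Of the 6 calls, 5 held in all 9 such fits and Prkacb in 8. Of the 7 calls of treated against naive mice, none held in all 9: Arrb1 held in 8, Adcy9 and Atf1 in 7, Prkar2a in 6, Adcy6 and Ppargc1a in 5 and Adcy3 in 4. The count of that comparison was 1 without naive replicate 1, 3 without naive replicate 3 or SR59230A-treated replicate 2, 4 without treated replicate 3 and 11 without EAE replicate 3. The count for EAE against naive mice was 10 without EAE replicate 3. No call of either comparison held with the level of the chemosensory genes as a further term, which also takes out differences between the groups.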

How the data were processed

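Samples were grouped by their labels. Replicates are numbered in accession order, with no pairing. The authors deposited whole numbers for each gene and library, used here as a score. How they were made is not described per the labels. DESeq2 appears in the submitters' processing notes with neither version nor role. The sources used here give no aligner, counting tool, build, annotation or library kit. Library sums were 8641735 to 10387955. On the log scale 2 directions across the libraries, almost wholly within the groups, carry no variance beyond rounding, which independent read counts cannot give. The spread between replicates may therefore be understated.

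Libraries were scaled to a common size by the median of ratios (factors of 0.9065 to 1.115). Genes with at least 10 in 3 libraries (13018) plus Adrb3 were fitted as log2(value + 1), a scale that understates changes of low genes, with limma-trend (limma 3.58.1, R 4.3.3), 2-sided, with a coefficient per group and the 2 directions as covariates (4 residual degrees of freedom, Benjamini-Hochberg threshold 0.05). The code was tested on simulated data. Per-library values in the text are as deposited unless called scaled. The members and gene lists were chosen with earlier results of these data known. Named genes are the members, every list gene that passed, the 3 most abundant tested genes of each list and the 5 most alike to each member. Other genes named (Th, Adra2a, Adcy4, Pde3b, Gm45470 and single markers) were chosen after their values were seen. Some genes of the lists and of the adrenergic receptor family are not reported here, and nothing above bears on their levels.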

Additional observations from a re-analysis of the deposited data

How the results depend on the processing

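No paired analysis was possible because the labels give the groups no shared replicate numbers that pair mice. For Adrb1 and Adrb3 no comparison passed under any alternative except Adrb1 in treated against naive mice, with log2 fold changes of -1.49 without the missing directions and -1.49 in the 6 libraries alone, where it passed, and -1.77 to -1.21 when 1 library was left out, where it passed in 5 of 9 fits. With the level of the chemosensory genes as a further term the sign of Adrb1 turned, to 0.053 for treated against EAE, 0.95 for EAE against naive and 1.01 for treated against naive mice (none passed), and Adrb3 relative to those genes turned to 0.32 for treated against naive mice. As a share of the library that level did not overlap between the groups, at 0.0817% to 0.101% in treated, 0.108% to 0.122% in EAE and 0.153% to 0.183% in naive mice, so the term also takes out differences between the groups. Pseudocounts of 0.1 and 10, no filter, no scaling and upper-quartile scaling kept every direction of both genes, and the 2 pseudocounts that of their ratio, but the pseudocount set much of the size. With 0.1 and 10 in turn, the ratio difference was -3.50 and -0.79 for treated against EAE, 2.27 and 0.16 for EAE against naive and -1.22 and -0.63 for treated against naive mice. Adrb3 was at 2.29 and 0.29, -2.75 and -0.44, and -0.45 and -0.14 in these comparisons, and Adrb1 at -1.19 and -0.50, -0.47 and -0.28, and -1.66 and -0.78. The ratio differences ran from -2.63 to -1.55, 0.43 to 1.51 and -1.51 to -0.80 for treated against EAE, EAE against naive and treated against naive mice when 1 library was left out.

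The count of pathway genes called stayed at 0 for treated against EAE mice in all alternatives. For EAE against naive mice, in place of 6, it was 12 without the missing directions, 10 in the 6 libraries alone, 0 with the chemosensory term, 2 without a trend in the prior and 5 to 10 with 1 library left out. For treated against naive mice, in place of 7, it was 3 without scaling, 13 without the missing directions, 13 in the 6 libraries alone, 0 with the chemosensory term, 0 without a trend and 1 to 11 with 1 library left out. The 2 rises became 0 without scaling and with upper-quartile scaling, which left 3 and 8 falls. Without scaling the median of all genes was -0.11 in this comparison. The causes of these moves were not tested. Depth is unknown, and at the level of Adrb3 a step of 1 in the deposited value is a large part of the value, which limits every statement on it.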
